A study of Mus musculus with 6 samples.

Results

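Arhgap30 lies in a gene-dense stretch of distal mouse chromosome 1, and its mRNA was above 3 counts per library in only 1 of the 3 CT26 lines compared, line B04. To ask whether this difference was restricted to 1 gene, Arhgap30 and 9 genes listed around it (Ufc1, Dedd, Nit1, Pfdn2, Klhdc9, Nectin4, Usf1, Tstd1 and F11r) were examined between 171.2 and 171.6 Mb of chromosome 1 of the mm10 assembly (GRCm38). The locus was chosen by the measured level of Arhgap30 in B04, which is therefore described here without a test. The 9 neighbours were listed by position, with earlier results of these data known. These 10 genes are among 33 annotated genes that overlap the interval and among 53801 genes in the tables.

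The study measured mRNA in CT26, a colon carcinoma line of strain BALBc mice, to compare lines that differ in resistance to immune checkpoint blockade (ICB), the treatment with antibodies to PD-1 or CTLA-4. There were 3 groups with 2 libraries each, replicates A and B. The parental group was bulk CT26 recovered from engrafted tumours, while B04 and B64 were each grown from a single cell of such tumours, so each is 1 clone. The labels name both as resistant to anti-PD1. The study also reported that both resisted combined anti-PD-1 and anti-CTLA-4 more than the parental line. The labels call the samples tumours, but per the methods of the study the RNA came from lines kept in culture, and the labels give no treatment, time point or age. Per the methods, the cells carried DNA barcodes, and tumour cells brought into culture were selected with puromycin to keep the barcoded ones. The methods speak of duplicates without naming separate cultures, so p-values measure the spread between these libraries, which may be technical.

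The libraries held between 19409204 and 23472012 expected counts in total, which differ by 1.21-fold. The median difference between gene length and effective length, which follows the length of the sequenced fragments, was 271.8 to 277.3 bases in the parental libraries and B04 replicate A, but 220.8 to 246.2 bases in B04 replicate B and both B64 libraries. Leukocyte markers summed to between 11 and 41.7 TPM (a transcript level scaled by gene length and library size), of which Cd68 gave 10.08 to 39.62 TPM, 8 of the 18 markers were at 0 in all libraries and Ptprc (CD45) reached at most 0.01 TPM. Of the epithelial markers, Krt18 and Krt20 were measured at 9.01 to 25.21 TPM, while Epcam, Cdh1, Krt19 and Vil1 reached at most 0.19 TPM. Fibroblast markers summed to between 345.76 and 376.51 TPM, mostly Col1a2. In bulk RNA, fewer cells that use a gene and less of its RNA in each cell cannot be told apart.

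Arhgap30 encodes a GTPase-activating protein of the RhoGAP family. The small GTPases that these proteins act on switch between a GTP-bound form, which binds effectors that shape actin and adhesion, and a GDP-bound form, and RhoGAPs speed the return to the GDP-bound form. Arhgap30 is best known from cells of the blood lineages. Its neighbours do unrelated work: Usf1 is a basic helix-loop-helix transcription factor that binds E-boxes, F11r (JAM-A) and Nectin4 are adhesion molecules of cell junctions, Pfdn2 is a subunit of the prefoldin chaperone, Ufc1 is the conjugating enzyme of the ubiquitin-like protein UFM1, Dedd is a death-effector-domain protein, Nit1 is a nitrilase family amidase, and Tstd1 belongs to the thiosulfate sulfurtransferases.

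Arhgap30 (ENSMUSG00000048865) occupies chr1:171388954-171410298 on the plus strand in GENCODE M21. It is closely packed with genes of the same strand. Nectin4 ends 355 bases before it and Usf1 starts 1014 bases after it. The promoter windows of Arhgap30 and of the genes directly before and after it are shown because these genes, though adjacent, differed in where they were expressed. The windows run from 250 bases before to 50 bases after the start site in RefSeq (GRCm38.p6, plus strand). Capitals mark the letters AGGAAG, the core that ETS factors bind, and TGTGGT, the core that RUNX factors bind, on either strand, and both motifs were chosen after the sequences had been seen.
Arhgap30, chr1:171388710-171389009: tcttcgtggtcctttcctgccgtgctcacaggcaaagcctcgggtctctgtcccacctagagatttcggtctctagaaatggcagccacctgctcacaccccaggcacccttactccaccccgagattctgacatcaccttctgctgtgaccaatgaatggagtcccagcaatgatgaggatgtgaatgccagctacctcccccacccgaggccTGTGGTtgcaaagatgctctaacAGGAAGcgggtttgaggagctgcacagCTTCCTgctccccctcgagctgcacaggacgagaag
Nectin4, chr1:171369923-171370222: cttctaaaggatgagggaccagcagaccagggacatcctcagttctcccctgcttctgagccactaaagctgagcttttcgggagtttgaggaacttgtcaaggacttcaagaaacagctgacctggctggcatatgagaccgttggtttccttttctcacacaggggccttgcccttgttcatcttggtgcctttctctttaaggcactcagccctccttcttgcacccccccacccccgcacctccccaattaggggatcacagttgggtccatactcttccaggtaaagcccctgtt
Usf1, chr1:171411063-171411362: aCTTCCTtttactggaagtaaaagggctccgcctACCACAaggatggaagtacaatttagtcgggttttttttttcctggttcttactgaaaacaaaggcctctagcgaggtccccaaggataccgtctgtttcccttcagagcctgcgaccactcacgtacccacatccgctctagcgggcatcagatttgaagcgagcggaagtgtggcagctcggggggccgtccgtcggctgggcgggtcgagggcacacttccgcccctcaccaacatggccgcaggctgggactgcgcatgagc

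The Arhgap30 window held 2 ETS cores and 1 RUNX core, the Usf1 window shown held 1 of each, and the Nectin4 window held neither. Such matches are common and are given as a description only: AGGAAG was found in 35.4% of all 32851 windows of this length and TGTGGT in 16.8%, on either strand. No match overlapped another in these windows. The Arhgap30 window had 9 CpG dinucleotides and a GC content of 57.0%, against a median of 7 CpGs over all windows, and it held no GC box (GGGCGG, in 35.7% of windows), no TATA box (TATAAA, in 13.6%) and no E-box (CACGTG, in 7.2%), all searched on both strands. The Usf1 window shown had the same GC content but 19 CpGs and 2 GC boxes. Another RefSeq window of Usf1, not shown, held neither core and had 30 CpGs, 1 GC box and a GC content of 72.0%. The Nectin4 window had 3 CpGs. All 10 genes had at least 1 RefSeq window, 15 in all, and none of the 15 held the E-box letters that Usf1 itself binds. The letters AGAACA, part of the element bound by steroid receptors and present in 19.0% of all windows, were in windows of Ufc1, Dedd and Pfdn2 and not in that of Arhgap30.

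Arhgap30 had 3192 and 2757 expected counts in the B04 libraries, replicates A and B. It had 0 and 3 counts in the parental libraries and 2 and 2 counts in the B64 libraries. Both B04 libraries were thus far above all 4 others, which were at or under 3 counts each, the level treated here as the floor of detection. After scaling by library, B04 had 2911 and 2806 normalised counts (mean 2859 ± 74.2, SD, n = 2). Set against a floor of 3 counts per library, the B04 mean was at least 1009-fold higher than the parental line and at least 873-fold higher than B64. Both bounds cover counting error only. Since the parental and B64 groups were both at or under the floor, no fold was computed between them.

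In absolute terms the B04 level was moderate. Arhgap30 reached 36.41 and 35.64 TPM in the B04 libraries, rank 3535 of 11163 and rank 3674 of 11208 among genes at or above 1 TPM, higher than 68.3% and 67.2% of them. Among 33 RhoGAP genes of the Arhgap family it was the gene with rank 3 in both B04 libraries. The gene length that RSEM reports is an average over transcripts weighted by their estimated level. It was 4487.91 and 4489.16 bases in B04, against 4494 bases for the annotated protein-coding transcript, which has 12 exons, and 5017, 4644 and 3789 bases for the 3 transcripts annotated as retaining introns. The length listed for parental replicate A, which had 0 counts, was 4486 bases. A value near 4494 bases therefore does not show which of these transcripts were present in B04. Arhgap30 took 17.2% and 16.4% of all normalised counts in the interval in B04 and at most 0.0217% in the other libraries.

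**Figure D1:**
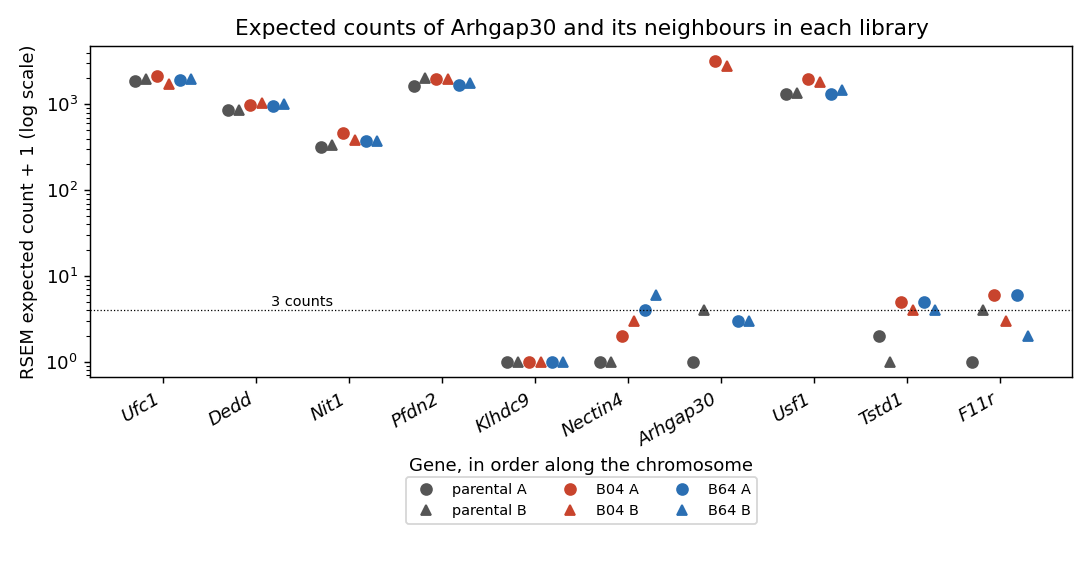
RSEM expected count plus 1 (vertical axis, log scale) of the 10 genes in chromosomal order (horizontal axis), with a point for each library, coloured by line (grey parental, red B04, blue B64) and shaped by replicate. The dotted line marks 3 counts. Arhgap30 was at 3192 and 2757 counts in B04 and at 0 to 3 counts elsewhere, whereas each of the other genes was either expressed in all 6 libraries or at no more than 5 counts in any of them.

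The 9 neighbours fell into 2 kinds, and neither followed the pattern of Arhgap30. Ufc1, Dedd, Nit1, Pfdn2 and Usf1 were expressed in all libraries, at 315 counts or more. Klhdc9, Nectin4, Tstd1 and F11r had at most 5 counts in any library and did not pass DESeq2's filter on low counts, so they were not tested. Klhdc9 was at 0 counts in all 6 libraries. Among the 5 neighbours tested, 2 were called higher in B04 than in the parental line, at an adjusted p under 0.05. Over all 13218 genes tested in that comparison, 24.1% were called, 11.2% higher and 12.9% lower. In B64 against the parental line 3 of the 5 were called, all higher, where 16.3% of all genes were called, 8.87% higher and 7.45% lower. The comparisons of B04 and of B64 use the same parental libraries. In B64 against B04 1 of the 5 was called, lower, where 24.3% of all genes were called, 13.1% higher and 11.1% lower.

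The genes directly beside Arhgap30 were measured first. Nectin4, which lies upstream on the same strand, had 0 and 0 counts in the parental pair of libraries, 1 and 2 in the B04 pair and 3 and 5 in the B64 pair. The B04 values lay between those of the other lines and at the floor, so a difference was not detectable at this depth. Usf1, which lies downstream on the same strand, was expressed in all lines.

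Usf1 had 1255 and 1277 normalised counts in the parental pair of libraries, 1813 and 1868 in the B04 pair and 1510 and 1527 in the B64 pair. The 3 groups did not overlap, and B04 was the highest, B64 intermediate and the parental line the lowest. Usf1 rose in B04 by a log2 fold change of 0.54 (SE 0.08, 1.45-fold, adjusted p = 5.86e-09) and in B64 by 0.26 (SE 0.09, 1.2-fold, adjusted p = 0.0183). B64 was lower than B04 by a log2 fold change of -0.28 (SE 0.08, adjusted p = 0.00644). The call in B04 was kept in all 16 alternatives, whose adjusted p reached at most 0.00249. The call in B64 was lost in 9 of 16, among them the omission of any single library, with adjusted p up to 0.992. Within the libraries of long fragments Usf1 in B04 replicate A was 1.43 times the parental mean, and within those of short fragments the B64 mean was 0.813 times B04 replicate B.

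Tstd1 and F11r lie beyond Usf1 on the same strand, and both were near the floor in every line. Tstd1, whose annotated span overlaps the end of Usf1 by 271 bases, had 1 and 0 counts in the parental pair of libraries, 4 and 3 in the B04 pair and 4 and 3 in the B64 pair. F11r had 0 and 3 counts in the parental pair of libraries, 5 and 2 in the B04 pair and 5 and 1 in the B64 pair. At so few counts no difference between the lines was detectable for either gene.

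**Figure D2:**
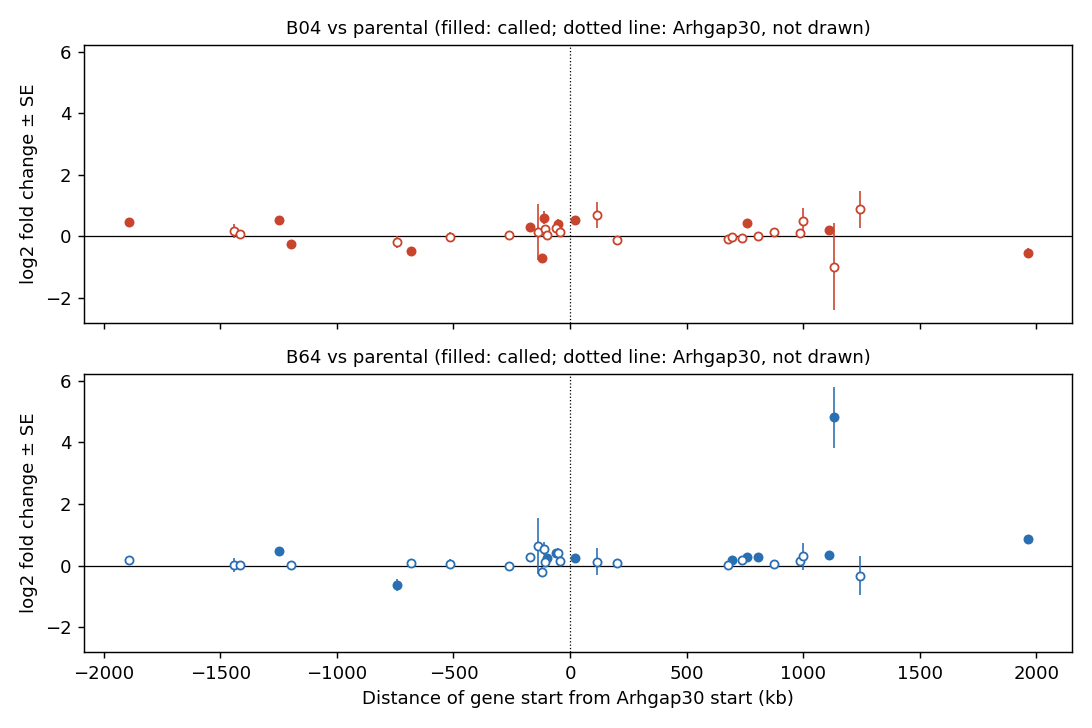
Log2 fold change against the parental line (vertical axes; bars, SE) of 33 genes with a mean normalised count of at least 10, by distance of the gene start from the Arhgap30 start (horizontal axis, kb), in B04 (upper panel) and B64 (lower panel). Filled points were called at an adjusted p under 0.05. Arhgap30 is not drawn, and its place is the dotted line. In B04 the points within 250 kb lay between -0.72 (B4galt3) and 0.68 (Alyref2); in B64 the highest point, Cfap45 at 4.82, was a gene with 0 and 4 parental counts.

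Of the expressed neighbours on the other side, Nit1 and Dedd overlap each other by 4324 bases on opposite strands, and RSEM divided reads between them, so the split of their counts is uncertain. Nit1 had 300 and 315 normalised counts in the parental pair of libraries, 421 and 394 in the B04 pair and 424 and 391 in the B64 pair. Dedd had 817 and 804 in the parental pair of libraries, 898 and 1047 in the B04 pair and 1086 and 1057 in the B64 pair. Both clones were above the parental line in every library for both genes, and the 2 clones overlapped for Nit1 and were close for Dedd. Nit1 was called higher in B04 (log2 fold change 0.41, SE 0.16, adjusted p = 0.043), a call lost in 11 of 17 alternatives and without any single library, and had a log2 fold change of 0.4 in B64 (SE 0.16, adjusted p = 0.0624). Dedd had a log2 fold change of 0.26 in B04 (SE 0.11, adjusted p = 0.0695) and was called higher in B64 (0.4, SE 0.11, adjusted p = 0.00335). That call was lost in 6 of 17 alternatives, among them the fragment-length block and the omission of either parental or either B64 library. The log2 fold change of Dedd in B64 was 0.18 to 0.42 over all alternatives. The expected counts of both genes, not normalised, summed to 1171 and 1197 in the parental pair of libraries. They summed to 1447 and 1416 in the B04 pair and 1333 and 1377 in the B64 pair. After scaling by library, the pair rose in B04 by 0.3 (SE 0.09, adjusted p = 0.00718) and in B64 by 0.4 (SE 0.09, adjusted p = 0.000296).

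By mean TPM, Ufc1 and Pfdn2 were the highest of the 10 genes in each line. Ufc1 had 1795 and 1823 normalised counts in the parental pair of libraries, 1965 and 1744 in the B04 pair and 2181 and 2084 in the B64 pair. Both B64 libraries lay above the parental range, whereas the B04 libraries lay on either side of it. Its log2 fold change was 0.04 in B04 (SE 0.09, adjusted p = 0.842, 95% interval -0.13 to 0.2) and 0.24 in B64 (SE 0.09, adjusted p = 0.0377), a call that was lost in 12 of 16 alternatives, including the omission of any single library. Pfdn2 had 1558 and 1868 normalised counts in the parental pair of libraries, 1778 and 1986 in the B04 pair and 1913 and 1885 in the B64 pair, and its groups overlapped. The log2 fold change of Pfdn2 was 0.14 in B04 (SE 0.1, adjusted p = 0.37, 95% interval -0.06 to 0.33) and 0.15 in B64 (SE 0.1, adjusted p = 0.366). Pfdn2 and Klhdc9 overlap by 809 bases on opposite strands, and the 0 counts of Klhdc9 in all libraries stand beside 1633 to 1997 counts of Pfdn2.

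The order of the 10 genes by TPM, which is scaled by length, was nearly the same in the 3 lines apart from Arhgap30. In the parental line it ran from Ufc1 (128 ± 1.86 TPM, SD, n = 2) through Pfdn2 (91.9 ± 8.12), Usf1 (72.0 ± 1.32) and Dedd (37.6 ± 1.87) to Nit1 (13.0 ± 0.396). In B04 Ufc1 stood at 134 ± 14.2, Pfdn2 at 121 ± 33.2, Usf1 at 113 ± 2.79, Dedd at 46.8 ± 3.26, Arhgap30 at 36.0 ± 0.544 and Nit1 at 17.9 ± 1.16. In B64 Ufc1 stood at 148 ± 3.37, Pfdn2 at 138 ± 25.0, Usf1 at 87.6 ± 1.37, Dedd at 48.1 ± 2.4 and Nit1 at 16.4 ± 1.29. The ranges of Ufc1 and Pfdn2 overlapped in both clones, and that of Pfdn2 also took in Usf1 in B04, so these neighbours in the order did not differ beyond their spread. In B04 Arhgap30 thus lay between Dedd and Nit1, and its range overlapped neither. Arhgap30 in the other lines, and Tstd1, F11r, Nectin4 and Klhdc9 in all lines, reached at most 0.74 TPM.

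The TPM of Pfdn2 was lower in each of the 3 libraries with long fragments than in the 3 with short fragments. It was 86.19, 97.68 and 97.89 in the libraries with long fragments (both parental libraries and B04 replicate A) and 144.81, 155.2 and 119.84 in those with short fragments (B04 replicate B and B64 replicates A and B). The RSEM length of Pfdn2 was 1209.77 to 1229.42 bases in the former and 873.49 to 1061.78 bases in the latter, between its annotated protein-coding transcripts of 1735 and 885 bases, while its counts overlapped between the classes. Since both parental libraries have long and both B64 libraries short fragments, the part of the line in this was not tested. For Arhgap30 the TPM of the 2 B04 libraries, 1 in each class, differed by less than 1 TPM.

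**Figure D3:**
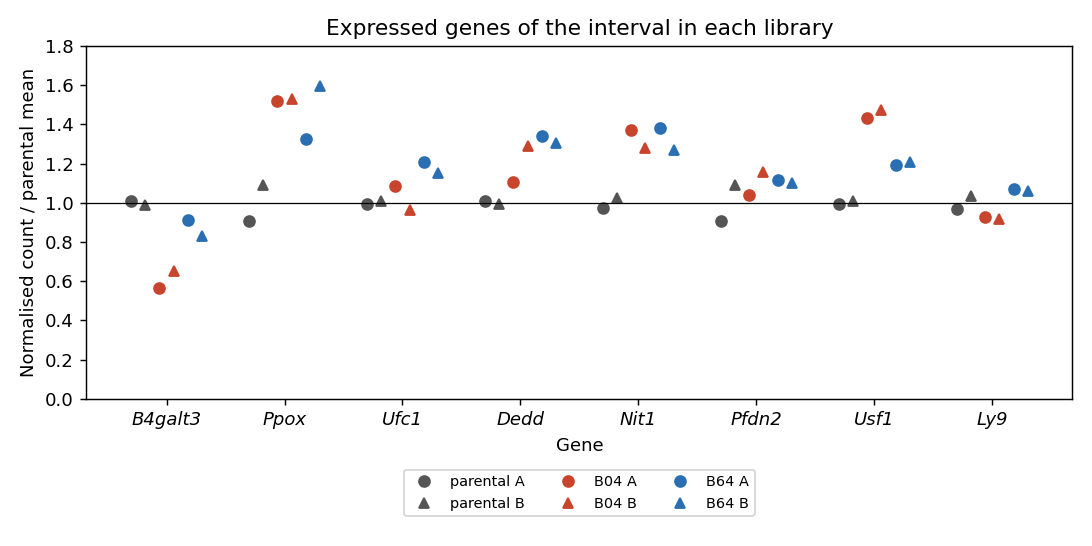
Normalised counts of 8 expressed genes of the interval, in chromosomal order (horizontal axis), divided by the mean of the parental libraries (vertical axis, linear from 0; the line marks 1). Points are single libraries, coloured by line (grey parental, red B04, blue B64) and shaped by replicate. Usf1 was highest in B04, B4galt3 was lowest in B04 and Ly9 stayed near the line in all libraries.

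The interval was then filled with every annotated gene. Of its 33 genes, 23 are protein coding, 13 had at most 3 counts in every library and 10 of these had 0 counts in all of them. Arhgap30 was the only gene of the interval with at most 3 counts in each parental and B64 library and at least 100 counts in both B04 libraries. Apart from Arhgap30, 14 genes were tested, of which 5 were called in B04 (4 higher, 1 lower), 3 in B64 (all higher) and 2 in B64 against B04 (1 in each direction). These are 35.7%, 21.4% and 14.3% of the genes tested there, against 24.1%, 16.3% and 24.3% of all genes. The median log2 fold change of the 14 was 0.25 in B04 and 0.25 in B64, against 0.002 and -0.002 over all genes tested. Of the 14, 12 had a positive log2 fold change in B04 and 13 in B64, 2 comparisons that share the parental libraries.

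Most genes of the interval that are not among the 10 were named where their mean normalised count was at least 10. B4galt3, a galactosyltransferase, had 544 and 534 normalised counts in the parental pair of libraries, 304 and 352 in the B04 pair and 492 and 448 in the B64 pair. B04 was the lowest of the 3 lines in both libraries. B4galt3 fell in B04 by 0.72 on the log2 scale (SE 0.15, adjusted p = 2.37e-05) and was higher in B64 than in B04 (0.52, SE 0.15, adjusted p = 0.00422). It overlaps Ppox, the protoporphyrinogen oxidase of haem synthesis, by 907 bases on opposite strands. RSEM divided reads between them, so the split of their counts is uncertain. Ppox had 150 and 180 normalised counts in the parental pair of libraries, 251 and 252 in the B04 pair and 219 and 263 in the B64 pair, and it was called higher in B04 (0.61, SE 0.21, adjusted p = 0.0189). With the pair summed, 727 and 763 counts in the parental pair of libraries, 608 and 594 in the B04 pair and 627 and 676 in the B64 pair, the log2 fold change was -0.28 in B04 (SE 0.12, adjusted p = 0.0757). A sum of a gene that was lower and one that was higher lies between them, so it bears on the pair and not on either call. The part of the split of reads in these opposite calls was not tested. The call of B4galt3 in B04 was kept in all 16 alternatives that fitted the gene by itself, all of which used the same split by RSEM. That of Ppox was kept in 10 of these and lost in 6, with losses without either parental library, without either B04 library and without B64 replicate B.

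Tomm40l, a relative of the mitochondrial import channel, was called higher in B04 (0.31, SE 0.11, adjusted p = 0.0247) and had a log2 fold change of 0.29 in B64 (adjusted p = 0.0512). The call of Tomm40l was lost without parental replicate A, without B04 replicate B and without either B64 library (adjusted p up to 0.457 over all alternatives). Usp21, a deubiquitinase, had 0.25 in B04 (adjusted p = 0.107) and 0.12 in B64 (adjusted p = 0.594). Alyref2 had 68.4 and 52.9 normalised counts in B04 against 40.1 and 35.5 in the parental libraries, a log2 fold change of 0.68 with an SE of 0.43 (adjusted p = 0.272). Adamts4, a secreted protease, had between 5 and 15 counts in the 6 libraries.

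Leukocyte receptor genes also lie in and near the interval, and 13 of 14 on a list of them were under 1 TPM in all libraries. The exception was Ly9, a SLAM family receptor, with 677 and 738 counts in the parental pair of libraries, 678 and 603 in the B04 pair and 630 and 672 in the B64 pair. Ly9 had a log2 fold change of -0.12 in B04 (SE 0.12, 95% interval -0.35 to 0.12, adjusted p = 0.573) and was called in none of the comparisons. Fcer1g, Slamf1, Slamf6, Slamf7, Cd48 and Cd84 were listed at 0 TPM in all libraries, the B04 libraries included. So was Itln1, which stands on this list but encodes a lectin and not a leukocyte receptor. The summed leukocyte markers were 13.12 and 11 TPM in B04 and 12.0 and 11.5 TPM in the parental libraries, with Ptprc, the general leukocyte marker, at or near 0 in all of them. In B64, where Arhgap30 was at the floor, they were 41.7 and 37.79 TPM, mostly Cd68.

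The nearest tested genes beyond the interval were Ncstn, a subunit of gamma-secretase, and Sdhc, a subunit of succinate dehydrogenase. Their log2 fold changes in B04 were -0.09 (SE 0.09, adjusted p = 0.518) and 0.05 (SE 0.08, adjusted p = 0.761). Within 1 Mb on either side of the Arhgap30 start, 28 other genes were tested, of which 5 were called higher and 2 lower in B04 and 6 higher and 1 lower in B64, with medians of 0.14 and 0.18. The 7 genes called of 28 in B04 are near the 24.1% called over all genes. Within 5 Mb, 57 genes were tested, of which 13 were called higher and 9 lower in B04 and 20 higher and 1 lower in B64, with medians of 0.07 and 0.26. Over all genes 24.1% were called in B04, 11.2% higher and 12.9% lower. In B64 16.3% of all genes were called, 8.87% higher and 7.45% lower, so the calls within 5 Mb leaned more to higher levels there. In B04 the fitted log2 fold changes of these 57 genes ranged from -1.7 to 1.29.

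To find genes with the pattern of Arhgap30 anywhere in the genome, genes were ranked by the lower of their 2 normalised B04 counts, given at most 3 counts in each of the 4 parental and B64 libraries. Of 39251 genes at that floor, 2 had at least 100 counts in both B04 libraries, Arhgap30 and Elovl7, and 12 had at least 10. Elovl7, a fatty acid elongase on chromosome 13 (chr13:108214404-108285683, plus strand), had 135 and 136 counts in B04 and 0 counts in the 4 other libraries. The B04 mean was at least 46.1-fold higher than the parental floor, and at 2.13 ± 0.156 TPM it was far below the level of Arhgap30. The nearest tested genes around Elovl7 were Ercc8, 19.0 kb before it, with a log2 fold change of -0.43 in B04 (SE 0.18, adjusted p = 0.0708), and Depdc1b, 30.6 kb after it, which was called higher (0.57, SE 0.15, adjusted p = 0.000782). Its promoter window is shown to set it beside that of Arhgap30, with the same motifs in capitals where present.
Elovl7, chr13:108214154-108214453: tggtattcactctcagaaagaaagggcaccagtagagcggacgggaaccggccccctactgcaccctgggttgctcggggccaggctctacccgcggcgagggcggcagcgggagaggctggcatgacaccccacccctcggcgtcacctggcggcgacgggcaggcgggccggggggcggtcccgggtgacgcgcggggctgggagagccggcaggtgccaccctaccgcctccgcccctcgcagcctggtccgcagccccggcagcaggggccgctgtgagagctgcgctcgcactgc

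The Elovl7 window held neither the ETS nor the RUNX core, and had 30 CpGs, 3 GC boxes and a GC content of 74.0%. The windows of both genes thus differed in CpG content, with 88.3% of all windows below that of Elovl7 and 54.2% below that of Arhgap30. Among the windows of the neighbours, CpG counts overlapped between expressed and unexpressed genes, though the highest were in expressed genes. The expressed genes had 6 (Ufc1), 28 (Nit1), 7 and 19 (Pfdn2), 19 and 30 (Usf1) and 6 to 43 (Dedd), the last 3 with several windows. The genes near 0 had 17 (Klhdc9), 19 (F11r), 3 (Nectin4) and 6 (Tstd1).

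Other RhoGAPs were examined as the family of Arhgap30. Of 32 listed besides it, 25 were tested, and 5 were called higher and 5 lower in B04 and 2 higher and 4 lower in B64, with a median log2 fold change of 0.03 in B04 and -0.12 in B64. The genes called were 40.0% of those tested in B04 and 24.0% in B64, against 24.1% and 16.3% of all genes. The total of 10 called in B04 varied between 3 and 12 over the alternatives, and between 4 and 6 whichever library was left out. Arhgap45, which is known from blood cells, had 375 and 421 normalised counts in the parental pair of libraries, 987 and 1004 in the B04 pair and 1030 and 1060 in the B64 pair, and it rose in both clones (1.32, SE 0.12, adjusted p = 2.41e-27 in B04; 1.39, SE 0.12, adjusted p = 5.14e-30 in B64). Arhgap18 rose in B04 by 0.88 (SE 0.13, adjusted p = 2.47e-10), and Arhgap22 fell in B04 by 0.72 on the log2 scale (SE 0.11, adjusted p = 4.24e-10). Arhgap15, another RhoGAP of blood cells, was detected only in the parental line, with 39 and 55 counts there and 0 in all 4 clone libraries. The parental mean of Arhgap15 was at least 15.3-fold higher than the floor of B04. Its call in B04 was lost in 2 of 13 alternatives (adjusted p up to 0.491). Of 5 RhoGAPs known from blood cells 4 were tested, with 1 called higher (Arhgap45) and 2 lower (Arhgap15 and Arhgap9) in B04, and between 1 and 3 were called over the alternatives. The call of Arhgap9 was lost in 12 of 16 alternatives, among them every omission of a library but that of parental replicate A (adjusted p up to 0.463).

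**Figure D4:**
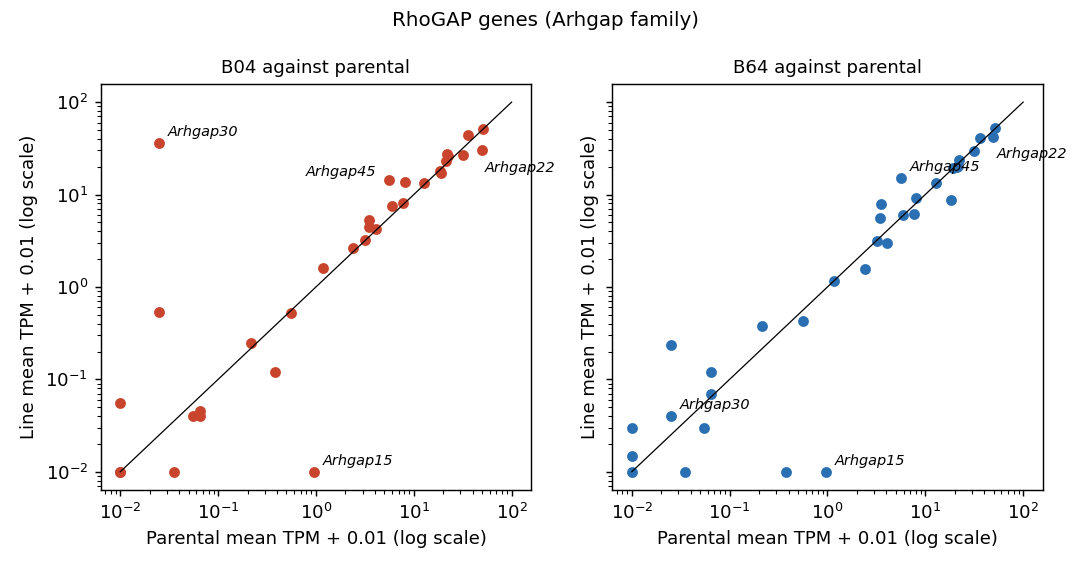
Mean TPM plus 0.01 of 33 RhoGAP genes in the parental line (horizontal axes) against B04 (left) and B64 (right; vertical axes), all on log scales, with a point for each gene and a line of equal level. Arhgap30 lay at 36.0 TPM in B04 and 0.03 TPM in B64, against 0.015 TPM in the parental line, and Arhgap15 at 0 in both clones against 0.945 TPM.

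The partners of the neighbours were described from lists, to be read against the 24.1% of all genes called in B04. In all, 9 E-box partners and relatives of Usf1 were tested, of which Mxi1 (0.81, adjusted p = 2.01e-12) and Tfeb (0.82, adjusted p = 6.39e-05) rose and Mlx (-0.63, adjusted p = 2.12e-06) fell in B04. Of 20 junction partners of F11r and Nectin4, 9 were tested and 4 were called in B04, among them the scaffold Tjp1, which rose (0.24, adjusted p = 0.0138, lost without parental replicate B or B04 replicate A), and the adhesion molecule Nectin2, which fell (-0.42, adjusted p = 7.3e-05). Of the 5 other prefoldin subunits 1 was called in B04, Pfdn4 (-0.36, adjusted p = 0.0075, lost without either parental or either B04 library), and of 8 other genes of UFM1 conjugation 2 were called lower, among them Ufm1 itself (-0.73, adjusted p = 2.72e-13). These shares, 20.0% and 25.0%, are near that of all genes. Of 5 other death-effector-domain genes Cflar, the inhibitor c-FLIP, fell in B04 (-1.15, SE 0.08, adjusted p = 1.76e-49) and less in B64 (-0.34, adjusted p = 8.18e-05). Of 8 genes on a list made for Nit1 and Tstd1, not all of their families, 3 were called higher and 1 lower in B04. Among them were Ethe1 (0.82, adjusted p = 5.95e-15), Sqor (0.52, adjusted p = 2.56e-06) and Suox (-0.4, adjusted p = 6.54e-09), which belong to neither family. Of the other genes listed, Mpst was called higher (0.67, adjusted p = 6.01e-05), and Nit2, Tst, Tstd2 and Tstd3 were not called in B04.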

How the data were processed

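RNA-seq of 6 libraries was analysed, 2 each of the parental, B04 and B64 lines, grouped by sample title. The authors aligned paired reads to mm10 with STAR and quantified genes with RSEM, and the RSEM version and the annotation release are not given in the sources used here. The deposited tables give each gene's expected count, RSEM's estimate after dividing shared reads, so values can be fractional. They also hold TPM from the same deposited files, scaled by the authors' RSEM run for effective length and library total, and RSEM gene length and effective length. The deposited FPKM values were not used. Of 53801 identifiers, 53706 (99.8%) matched GENCODE M21, built on GRCm38, the assembly of mm10. The kit is not stated to keep strand, so overlapping genes on opposite strands cannot be separated by strand.

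Expected counts were rounded and tested with DESeq2 (1.42.0, R 4.3.3), the study's tool, by its Wald test in 1 fit of all 6 libraries with group as the only term, with independent filtering. A gene was called when its p, adjusted by Benjamini and Hochberg, was under 0.05, and all adjusted p-values in the text are from DESeq2 unless another tool is named. Normalised counts are expected counts divided by DESeq2 size factors. Folds against groups at or under 3 counts per library are bounds over that floor, which covers counting error only.

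Named genes were the 10 listed, other genes of the interval with a mean normalised count of at least 10, the nearest tested gene beyond each end, genes at the floor outside B04 with at least 100 counts in both B04 libraries, and up to 3 called members of each list with the smallest adjusted p in B04. A few of these genes are not reported here. The members and lists were chosen with earlier results of these data known. Alternatives used edgeR (4.0.16), TMM factors, other filters, the compared groups alone, replicate or fragment-length blocks, effective-length offsets, limma (3.58.1) on log2(TPM + 1) or log2(TPM + 0.1) for genes with a TPM of at least 1 in 2 libraries, and the omission of each library. Summing the overlapping pairs was added after seeing the data. On simulated counts for B04 against parental, 200 of 13608 tested genes were changed, by 2-fold or 4-fold. DESeq2 recovered 184 of them, 85 at 2-fold and 99 at 4-fold, and 7.5% of its 199 calls were false. Recovery of smaller folds, such as those of the neighbours called, was not tested.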

Additional observations from a re-analysis of the deposited data

Results flagged for a closer look

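Among the named genes, these were singled out because B04 and B64 differed when compared directly, by a DESeq2 adjusted p under 0.05. The values are log2 fold changes of B64 over B04. Genes from lists had been picked by their call in B04 against the parental line. The same B04 libraries enter this comparison, so a difference from B64 was favoured in advance and is a description only. Over all genes tested in it, 24.3% were called. Of Arhgap30's listed neighbours, Usf1 was lower in B64 (-0.28), and of the other genes of the interval, B4galt3 was higher in B64 (0.52), which falls to 0.29 (adjusted p = 0.0628) when its overlapping partner Ppox is added to it. Of the RhoGAP family, Arhgap18 (-0.64) was lower in B64 and Arhgap22 (0.45) was higher. Among relatives of Usf1, Mxi1 (-0.37) and Tfeb (-0.72) were lower and Mlx (0.7) was higher. Of the junction genes, Tjp1 (-0.43) was lower and Nectin2 (0.27) was higher. Ufm1 (0.62), Cflar (0.81), Suox (0.75) and Sqor (0.55) were higher and Ethe1 (-0.72) was lower in B64. Not all of these calls were firm. That of Nectin2 was lost in 9 of 16 alternatives, the omission of any B04 or B64 library among them (adjusted p up to 0.222). That of Usf1 was lost in 5 of 16, including the omission of any B04 or B64 library (up to 0.129). That of B4galt3 was lost in 4 of 17, including omission of B04 replicate A or B64 replicate A (up to 0.225 over all alternatives), that of Mxi1 without B04 replicate B or either B64 library (up to 0.149), and that of Tfeb without B04 replicate B or B64 replicate B (up to 0.0783). The other 9 genes kept their call in all 16 alternatives.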

How the results depend on the processing

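Groups of 2 libraries limit what these tests can call, and the 4 genes at 5 counts or fewer cannot be compared at this depth. Fragment length follows the line except in B04 replicate B, so it cannot be fully told apart from B64. The bound for Arhgap30 in B04 over the parental line (1009-fold) was 990 to 1027 with 1 library left out and 1060 from TPM. The letters A and B did not pair the libraries (correlations of their deviations 0.11, 0.01 and -0.05 across 11996 genes), and with a replicate block the neighbours called were 1 in B04 and 1 in B64, and the interval genes called in B64 were 1. The cause of these and the following changes was not tested.

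Of the neighbours, 2 were called in B04, and 1 without independent filtering, with the compared groups alone, with a fragment-length block or with the effective-length offset, and 1 whichever library was left out. In B64 3 were called, and 0 with the fragment-length block, 1 with the offset and 0 to 1 with a library left out. In B64 against B04 1 was called, and 2 by edgeR, 0 with the fragment-length block and 0 to 1 with a library left out. Of the interval genes, 5 were called in B04, and 2 with the fragment-length block and 2 to 3 with a library left out; 3 in B64, and 6 by edgeR or with at least 10 counts in 2 libraries, 0 with the fragment-length block, 1 with the offset and 0 to 1 with a library left out; 2 in B64 against B04, and 0 with the fragment-length block and 0 to 2 with a library left out. The interval median in B04 (0.25) was 0.3 with the offset, 0.36 and 0.37 with limma on log2(TPM + 1) and log2(TPM + 0.1) and 0.24 to 0.3 with a library left out. In B64 (0.25) it was 0.19 without independent filtering, 0.17 with the fragment-length block, 0.28 with either limma fit and 0.2 to 0.26 with a library left out. In B64 against B04 (0.0) it was -0.01 with TMM factors or the offset, -0.06 with either limma fit and -0.03 to 0.08 with a library left out.

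All genes called in B04 numbered 3181, and 1596 with the fragment-length block, 1999 and 1986 with limma and 1755 to 2577 with a library left out. In B64 they numbered 2157, and 340 with the block, 1287 and 1242 with limma and 988 to 1772 with a library left out. In B64 against B04 they numbered 3118, and 1625 with the block, 2051 with limma on log2(TPM + 0.1) and 1696 to 2758 with a library left out. Refits with an overlapping pair summed estimate the pair and not either gene alone, and they are counted here for each of its genes. For named genes, 857 of 991 refits of 62 results kept direction and call, 106 lost a call, 19 gained one and 9 changed sign. These 9 were Adamts4 in B04 (-0.46 without parental replicate B, -0.41 without B04 replicate A, and -0.46 to 1.16 over single omissions), Ufc1 in B04 (-0.01 with the offset, -0.06 without B04 replicate A, and -0.06 to 0.12 over single omissions), Sdhc in B04 (-0.02 with the offset, 0.0 at 2 decimals without B04 replicate A, and up to 0.09 over single omissions), Pfdn2 in B64 (-0.01 with the fragment-length block), and, with the overlapping pair summed, Ppox in B04 (-0.28) and B4galt3 in B64 (0.01).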
